A study of Mus musculus with 66 samples.

Results

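The genes described here are 3 targets of the transcriptional coactivator YAP (Ctgf, Cyr61 and Amotl2) and 6 genes of the TGF-beta pathway: the ligands Tgfb1, Tgfb2 and Tgfb3, the signal transducer Smad3, and the feedback inhibitors Smad7 and Skil. They were chosen by gene symbol, with earlier results of these data known, and these 9 are among 11513 genes in each deposited table. Each had 1 row in every table and each passed the filter on low values. They were followed in 3T9-MycER cells, mouse embryonic fibroblasts from E13.5 with c-myc flox/flox alleles that were infected in vitro with MycER. MycER is Myc fused to the hormone-binding part of the oestrogen receptor, which 4-hydroxytamoxifen (OHT) makes active. All cells carried MycER, from a pBabe construct with bleomycin resistance, and were used while sub-confluent. The OHT dose was 400 nM, and cells were taken before it (0 min), at minutes 10, 20 and 30, and at hours 1, 1.5, 2, 4, 8, 12 and 16. Each of the 11 times had 3 libraries of labelled RNA, made newly during 10 min of exposure to 4-thiouridine at 300 µM, and 3 of total RNA, 66 in all. There was no time course without OHT, so effects of OHT and of time alone cannot be told apart, and changes against 0 min share the same 0 min libraries. Since the labels do not say whether replicates came from different cultures, the p-values speak only of the spread among these libraries, which may be technical.

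YAP and its relative TAZ (Wwtr1) enter the nucleus when the Hippo kinases are inactive and switch on genes through TEAD factors. Their targets include the secreted matricellular proteins CTGF and CYR61 and the scaffold AMOTL2, which binds YAP and holds it back. TGF-beta ligands are secreted in a latent form, and once freed they bring together receptors that phosphorylate SMAD2 and SMAD3, which then act with SMAD4. SMAD7 blocks the receptors, and SKIL (SnoN) represses SMAD target genes. In fibroblasts both pathways drive matrix and adhesion genes, and Ctgf is a known target of each.

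Promoters of Cyr61 and Amotl2 are shown because these YAP targets fell with OHT and TEAD factors bind the motif GGAATG. The 250 bases before the start were taken from the RefSeq promoter table (GRCm38.p6) for Cyr61 (as Ccn1), Amotl2, Tgfb1, Tgfb2 and Smad3, 5 of the 9 genes. Ctgf, Tgfb3 and Skil had no entry, and the promoter of Smad7 was left out of the search. The sequences run 5′ to 3′ on the gene's strand, and capitals mark the match to GGAATG, which lies on the opposite strand in both.
Cyr61, chr3:145649986-145650235, minus strand: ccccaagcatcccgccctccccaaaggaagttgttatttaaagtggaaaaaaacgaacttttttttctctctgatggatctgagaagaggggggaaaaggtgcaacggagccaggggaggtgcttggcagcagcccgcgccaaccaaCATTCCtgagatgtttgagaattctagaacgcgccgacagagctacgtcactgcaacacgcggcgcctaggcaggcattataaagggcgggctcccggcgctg
Amotl2, chr9:102717554-102717803, plus strand: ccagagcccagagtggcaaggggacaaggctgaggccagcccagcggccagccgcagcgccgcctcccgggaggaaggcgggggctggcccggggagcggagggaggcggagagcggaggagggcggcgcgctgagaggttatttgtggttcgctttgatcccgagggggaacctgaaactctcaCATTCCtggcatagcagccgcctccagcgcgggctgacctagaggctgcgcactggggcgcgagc
The nearest base of the match was 98 bases before the start in Cyr61 and 60 bases before it in Amotl2. Of 32817 promoters of the same length, 12.6% held GGAATG on either strand. The other motifs searched on both strands were CAGAC (Smad, in 42.2% of promoters), GTCTAGAC (Smad palindrome, 0.168%), TGANTCA (AP-1, 6.75%) and CACGTG (E-box, 6.02%). None of the 5 motifs was in the windows of Tgfb1 and Smad3, and no other motif was in those of Cyr61 and Amotl2. Tgfb2 held CAGAC at 2 places and CACGTG at 1. A match is a description of letters, not of binding.

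The deposited values are rescaled whole numbers, so read depth is unknown. Sums per library ran from 11620000 to 14120000 for labelled exons and from 46500000 to 52720000 for total exons. Introns took 69.1% to 75.9% of what labelled libraries summed to, and 17.1% to 21.5% in total RNA. Of 12 fibroblast markers 9 were in the files, led by S100a4 and Vim with median total exon levels of 2120 and 2040 RPKM. Blood markers in the files had medians of at most 2.63 RPKM (Cd68), and the endothelial marker Pecam1 had 0.0563 RPKM. The neural markers Nes and Tubb3 had medians of 89.2 and 10.3 RPKM. Epithelial and skeletal muscle markers were not analysed here. Replicate 1 at 12 h was low for Ctgf, Smad7 and Skil, and their 12 h changes in labelled exons are also given without it. For Ctgf the change in total exons is given without it too. The 12 h intron results were not refitted without it.

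At 0 min the YAP targets were among the most abundant RNAs of these cells. In RPKM, which is per length, the total exon level of Cyr61 was 228.4, above 98.35% of tested genes, and Ctgf and Amotl2 were at 113.2 and 70.27. Tgfb3 was the highest ligand at 21.37 RPKM, against 4.258 for Tgfb2 and 0.7905 for Tgfb1, which was at the 17.12 percentile. Smad3 was at 16.75 RPKM, Skil at 11.32 and Smad7 at 9.901. The order differed in labelled RNA, where Skil (7.587 RPKM) and Smad7 (6.933) were above Tgfb3 (5.885) and Smad3 (5.238). The ratio of labelled to total RPKM at 0 min was 1.219 for Tgfb1, 0.7837 for Ctgf and 0.7002 for Smad7. It was 0.3128 for Smad3 and 0.2754 for Tgfb3, at the 32 and 23.63 percentiles of 11462 genes.

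With OHT, the newly made RNA of 8 of the 9 genes fell relative to other genes, late and to different depths. Values were scaled to the bulk of genes, so absolute RNA output cannot be read from these changes. In labelled exons at 16 h every member except Tgfb2 fell, where 21.7% of all tested genes fell. Since the members were chosen with earlier results known, this contrast is a description only. The median log2 change of the 9 was -0.82, beside 0.01 over all tested genes, which the scaling holds near 0. The number that fell was 3 at 4 h (18.7% of all tested genes), 7 at 8 h (22%) and 8 at 12 h (24.8%). No member was called at 10 min, 20 min or 2 h, where limma called 0%, 4.04% and 27% of all genes. Tgfb2 rose at 30 min and at 1 h (8.04% and 13.5% of all genes rose), and Tgfb1 fell at 1.5 h (11.5% fell).

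In total exons no member was called up to 1 h, where the shares of all genes called at 10 min, 20 min, 30 min and 1 h were 0%, 0.0435%, 0.366% and 8.71%. Then 2 members fell at 4 h (19.5% of all genes), 6 at 8 h (26%), 7 at 12 h (29.6%) and 8 at 16 h (29%). A test of any change over the 10 times with OHT called all 9 genes in labelled exons, as it did 64.6% of tested genes. In total exons it called all except Tgfb2 (limma adjusted p = 0.0554), where 70.8% of tested genes were called. It called all 9 in labelled and in total introns, where 79.9% and 71.7% were called. The Tgfb2 call was lost in labelled exons under either other scaling (adjusted p = 0.0785 and 0.124) or with no variance trend (0.0509), and in total introns with no variance trend or with log2(RPKM + 0.1) (0.055 and 0.0502).

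**Figure D1:**
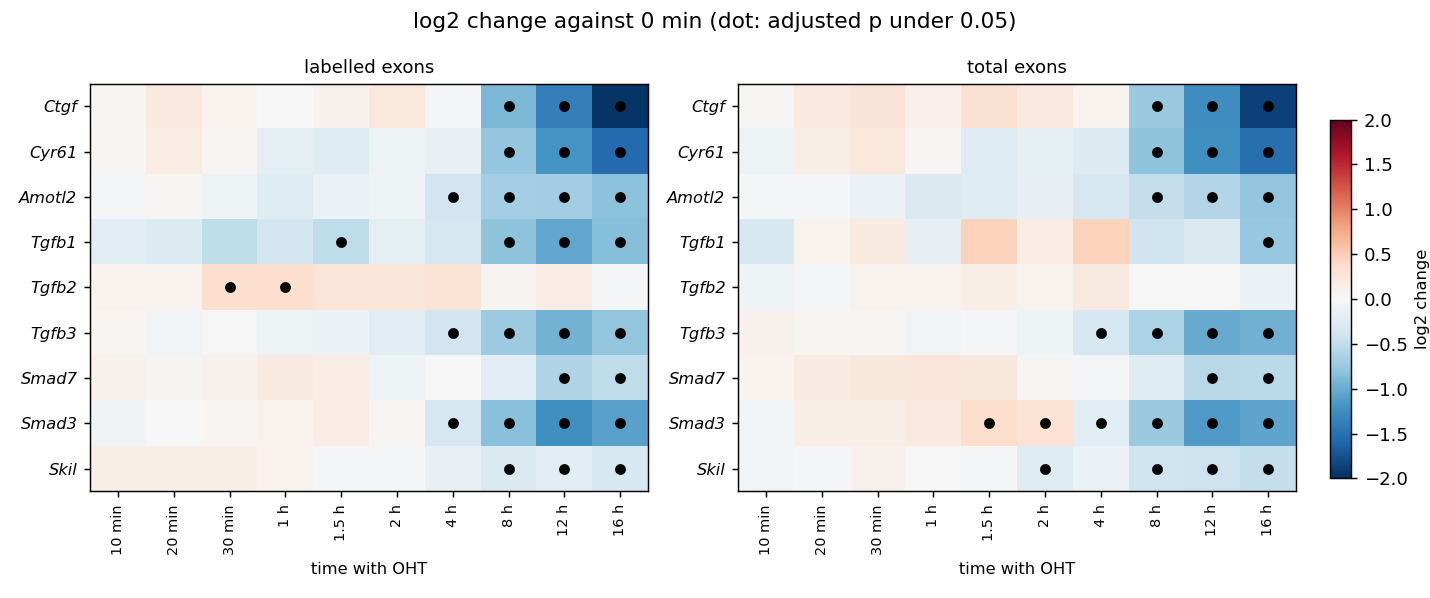
Log2 change against 0 min of the 9 genes (rows) at each time with OHT (columns), in labelled exons (left) and total exons (right); red is higher, blue lower, and a dot marks an adjusted p under 0.05. From 8 h on the calls are all falls, and Tgfb2 has none at those times.

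Ctgf had the largest change of the 9 at 16 h in both exon tables. Its labelled exon values (scaled deposited values, which are not reads) were 12939, 8035 and 9701 at 0 min and 3684, 2112 and 2225 at 16 h, and the groups did not overlap. The log2 change was -1.95 ± 0.23 (SE, n = 3 per group, limma adjusted p = 6.95e-09). At 4 h its level was 9809 ± 1171 (SD, n = 3), against 10225 ± 2494 at 0 min, a change of -0.039 ± 0.23 that did not pass the test. It was 5488 ± 1298 at 8 h, a change of -0.90 ± 0.23. The 12 h values were 2233, 5527 and 4747, with replicate 1 well under the other libraries. Without that library the log2 change at 12 h was -0.97 in place of -1.37, and in total exons it was -0.92 without replicate 1 in place of -1.24. In total RNA Ctgf went from 16951, 16601 and 16906 to 5814, 4108 and 4140, a change of -1.86 ± 0.22. An antisense lincRNA, Gm15270, overlaps 570 exon bases of Ctgf (mm9 chr10:24315248-24318489), and whether counting used strand is not given, so their reads may not be told apart.

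Cyr61 (mm9 chr3:145309935-145312949) had no call until 8 h and then fell. Its labelled exon values were 10995, 10648 and 11870 at 0 min and 4973, 3838 and 2849 at 16 h, so the highest late value was under the lowest early one. The change was -1.56 ± 0.17 (adjusted p = 1.81e-09). At 4 h the libraries were at 8916, 13106 and 8642, on both sides of the 0 min values, with a change of -0.15 ± 0.17 that did not pass the test. In total exons Cyr61 went from 28627 ± 3977 to 10304 ± 2984, a change of -1.51 ± 0.24. The means of Cyr61 and Ctgf over the 11 times correlated at r = 0.98 in labelled exons, a description over means from the same libraries.

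Amotl2 (mm9 chr9:102619002-102635748) was called lower from 4 h in labelled exons and from 8 h in total exons. In total exons its changes were -0.34 at 4 h, which did not pass the test, -0.48 at 8 h and -0.79 at 16 h. Labelled exons were at 8105, 8599 and 9313 at 0 min, at 5959, 7585 and 6474 at 4 h, and at 4765, 5382 and 4595 at 16 h. Both later groups lay under the 0 min group. The log2 change in labelled exons was -0.38 ± 0.11 at 4 h (adjusted p = 0.00749) and -0.82 ± 0.11 at 16 h (adjusted p = 2.62e-07). Without replicate 1 at 4 h the 4 h call was lost (adjusted p = 0.0594). Its labelled introns were lower at 1 h, at 6387, 7437 and 6666 against 8419, 8505 and 9092, a change of -0.35 ± 0.11 (adjusted p = 0.00821). In labelled introns at 1 h, 24.4% of tested genes fell. The intron changes of Amotl2 at 1.5 h and 2 h, -0.12 ± 0.11 and -0.13 ± 0.11, did not pass the test, and that at 4 h did (-0.48 ± 0.11).

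**Figure D2:**
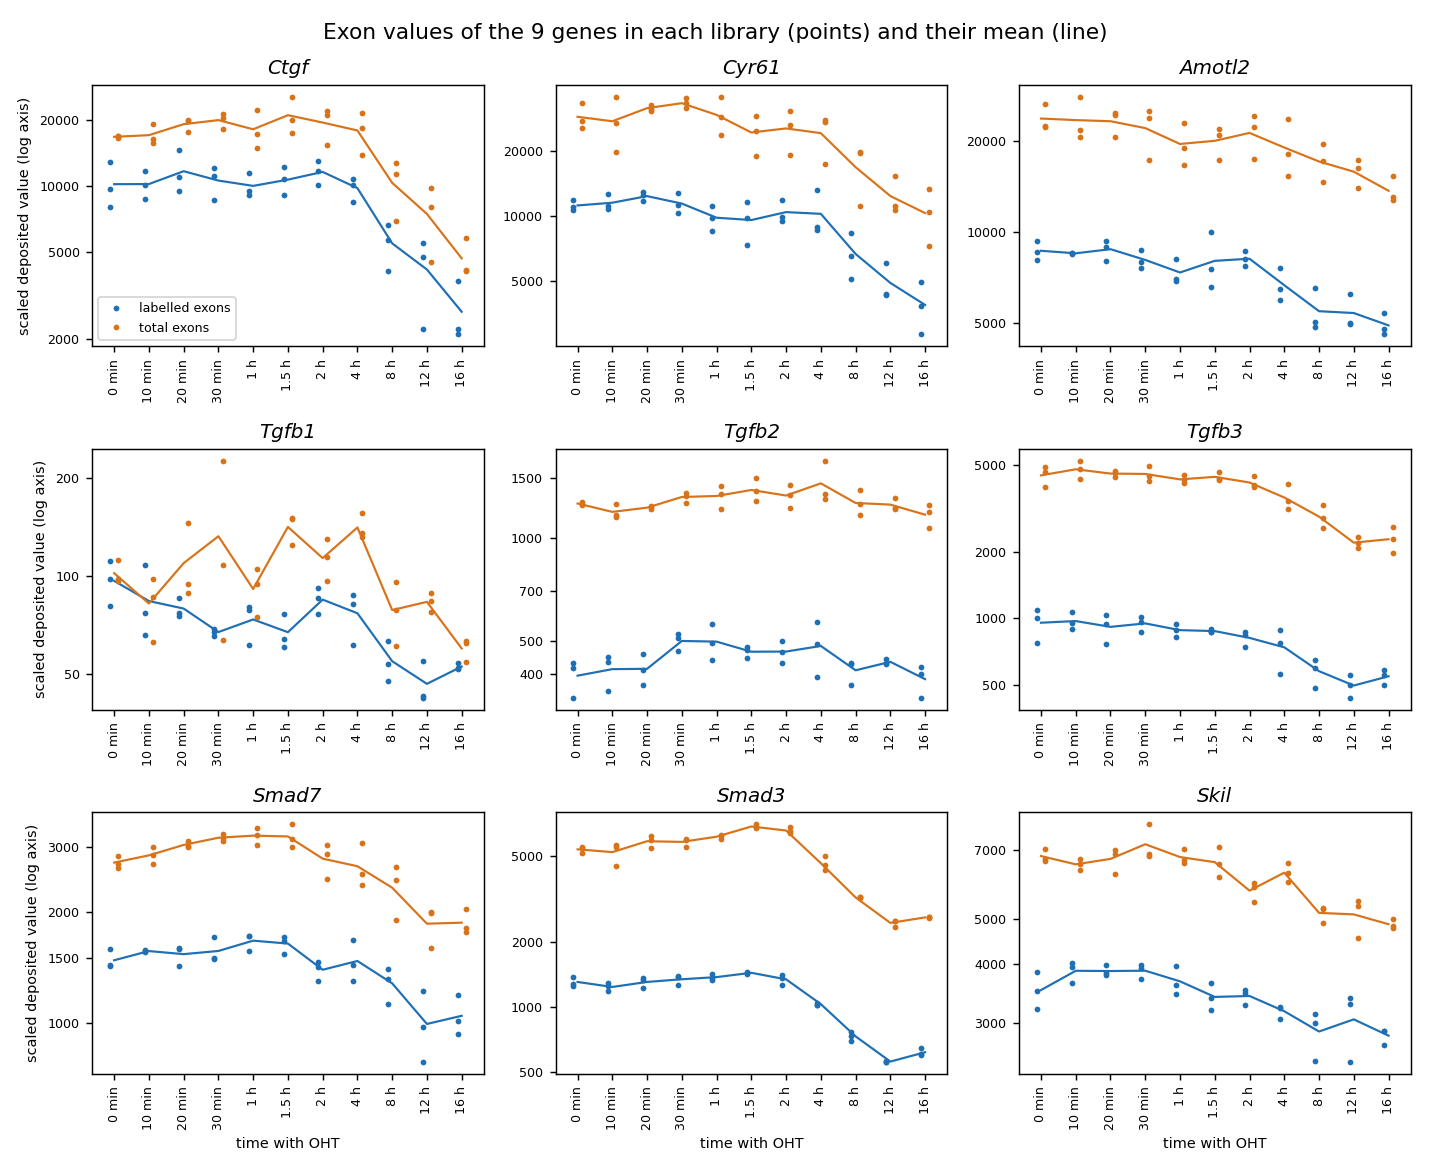
Scaled deposited exon values (log axis) of the 9 genes at each time with OHT; points are the 3 libraries of labelled (blue) and of total RNA (orange), lines their means. Ctgf and Cyr61 drop after 4 h, Smad3 in total RNA is higher at 1.5 h before it drops, and Tgfb2 ends near its start.

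Of the ligands, Tgfb3 and Tgfb1 fell and Tgfb2 had no late call. Tgfb3 (mm9 chr12:87397694-87419991), the most abundant, had labelled exon values of 771, 1089 and 1008 at 0 min and of 555, 581 and 501 at 16 h. The groups did not overlap, and the change was -0.80 ± 0.13 (adjusted p = 5.37e-06). In total exons the change was -0.97 ± 0.10, from 4475 ± 476 to 2292 ± 315. It was also called at 4 h in labelled exons (-0.38 ± 0.13), where the values 559, 886 and 772 overlapped those at 0 min. That call was lost without replicate 1 at 4 h (change -0.19, adjusted p = 0.267) and without replicate 2 or 3 at 0 min (0.136 and 0.0828). The 4 h call in total exons (-0.34 ± 0.10) was lost without replicate 1 at 4 h or replicate 2 at 0 min (0.0681 and 0.0543).

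Tgfb1 (mm9 chr7:26472021-26490096) was the least abundant ligand. Its labelled exons were at 81.4, 97.9 and 112 at 0 min and at 54.4, 51.9 and 52.3 at 16 h, with no overlap. The change was -0.85 ± 0.18 (adjusted p = 0.000187), and -0.36 on the log2(RPKM + 1) scale. Total exons were at 112, 98.4 and 96.6 and then 54.7, 63.2 and 62.4, a change of -0.76 ± 0.27 (adjusted p = 0.0176). This call was lost without replicate 1 at 16 h, without replicate 1 at 0 min, or with log2(RPKM + 1) (adjusted p = 0.0582, 0.0587 and 0.0516). At 1.5 h its total exons were at 151, 125 and 149.9 and at 4 h at 156, 136 and 132, above every 0 min library. These changes, 0.47 ± 0.27 and 0.46 ± 0.27, did not pass the test (adjusted p = 0.27 and 0.181) and had the opposite sign to those in labelled exons (-0.51 ± 0.18 and -0.33 ± 0.18). The spread was widest at 30 min, with libraries at 63.6, 108 and 227.

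Tgfb2 (mm9 chr1:188447065-188529871) was the member with no call at 16 h in any of the 4 tables. Labelled exons were at 339.9, 416 and 430.0 at 0 min and at 341, 418 and 399 at 16 h, so the groups overlapped. The change was -0.032 ± 0.12 in labelled exons (adjusted p = 0.849) and -0.11 ± 0.083 in total exons (adjusted p = 0.265). At 30 min it was higher, at 508, 525 and 466, a change of 0.34 ± 0.12 (adjusted p = 0.0467), and at 1 h the change was 0.33 ± 0.12 (adjusted p = 0.0334). Both calls ended with no further scaling (0.163 and 0.0744) and with scaling by library sums (0.0748 and 0.0834). At 30 min the call was lost as well with log2(RPKM + 0.1), log2(RPKM + 1) or no variance trend (0.0661, 0.0654 and 0.0677). In those settings, and with no further scaling, another member was called at 30 min instead. The 30 min call also ended without any 1 of the 30 min libraries or without replicate 1 or 2 at 0 min (adjusted p from 0.0609 to 0.239), and the 1 h call without replicate 2 or 3 at 1 h or replicate 1 at 0 min (0.0699, 0.182 and 0.209).

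Smad3 (mm9 chr9:63494574-63605801), which carries the TGF-beta signal to the nucleus, had libraries close to one another. Its labelled exons were at 1383, 1256 and 1287 at 0 min, at 1050, 1021 and 1028 at 4 h, and at 647, 606 and 600.5 at 16 h. These 3 groups did not overlap. The log2 change was -0.34 ± 0.061 at 4 h (adjusted p = 2.97e-05) and -1.08 ± 0.061 at 16 h (adjusted p = 1.99e-16). At 12 h the values were 559, 559.9 and 558, under those at 16 h. In total exons it rose first, from 5515, 5487 and 5188 at 0 min to 6864, 7049.7 and 6751 at 1.5 h, with no overlap. That change was 0.35 ± 0.064 (adjusted p = 0.000167), where 9.27% of tested genes rose. At 2 h it was 0.29 ± 0.064 (11.7% rose), at 4 h -0.22 ± 0.064 and at 16 h -1.05 ± 0.064. The 4 h call in total exons was lost without replicate 2 at 4 h (adjusted p = 0.0589).

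Smad7, which blocks the receptors, had labelled exon values of 1579.7, 1421 and 1429 at 0 min and of 1187, 1012 and 931 at 16 h. The groups did not overlap, and the change was -0.51 ± 0.11 (adjusted p = 0.000178). It was first called at 12 h, where the values were 782, 1217 and 974. Without replicate 1 the 12 h change was -0.44 in place of -0.60. Skil (mm9 chr3:30993980-31021499), the SMAD repressor, went from 3513, 3856 and 3214 to 2885, 2893 and 2694 at 16 h, a change of -0.32 ± 0.086 (adjusted p = 0.00284). Its 8 h call was lost without replicate 3 at 8 h or replicate 2 at 0 min (0.0833 and 0.0521), and its 12 h call without replicate 1 at 12 h (change -0.074 in place of -0.22, adjusted p = 0.483) or replicate 1 or 2 at 0 min (0.0692 and 0.2). The 12 h call of Skil was lost as well with log2(RPKM + 1), with only the groups compared, or with no variance trend (0.0503, 0.106 and 0.0627). In total exons Skil also fell at 2 h, where the change was -0.24 ± 0.066 (adjusted p = 0.00776) and 10.3% of tested genes fell. That call was lost without replicate 1 at 2 h (adjusted p = 0.0562).

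Introns, which report mostly unspliced RNA, rose early for Smad3 and Tgfb2. At 30 min Smad3 introns in labelled RNA were at 14416, 15617 and 16348 against 12753, 10549 and 11878 at 0 min. The groups did not overlap, and the change was 0.40 ± 0.10 (adjusted p = 0.00109). Tgfb2 introns were at 5532, 6086 and 5108 against 3779, 4165 and 4583, a change of 0.42 ± 0.10 (adjusted p = 0.000828). In labelled introns at 30 min 22.2% of tested genes rose, and 2 of the 9 members did. Tgfb2 introns were called again at 2 h (0.29 ± 0.10, where 22.4% rose). In total RNA the intron changes at 30 min were 0.44 ± 0.11 for Smad3 and 0.40 ± 0.14 for Tgfb2, where 15.1% of genes rose. Without replicate 3 at 30 min these were 0.27 (adjusted p = 0.0672) and 0.27 (0.219), and Tgfb2 was also lost without replicate 2 at 30 min or replicate 1 or 2 at 0 min (0.0775, 0.0755 and 0.137). This Tgfb2 call was lost as well with scaling by library sums or with no variance trend (limma adjusted p = 0.0734 and 0.0641). Total introns of Smad3 at 1.5 h (0.27 ± 0.11, adjusted p = 0.0489) lost their call without any 1 of the 6 libraries (adjusted p from 0.066 to 0.136). They also lost it with scaling by library sums or no further scaling (limma adjusted p = 0.0629 and 0.0631).

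Introns and exons of Tgfb1 went apart in labelled RNA. At 1.5 h its introns were at 288, 248.9 and 286 against 228, 234 and 192 at 0 min, a change of 0.33 ± 0.13 (adjusted p = 0.0431). Its exons were at 64.5, 76.9 and 60.9 against 81.4, 97.9 and 112, a change of -0.51 ± 0.18 (adjusted p = 0.032). The groups did not overlap in either. Labelled introns were also higher at 1 h (0.39 ± 0.13), and 24.8% and 22.6% of tested genes rose at 1 h and 1.5 h. In total RNA the Tgfb1 introns rose at 1 h, 1.5 h and 2 h, with changes of 0.45 ± 0.15, 0.60 ± 0.15 and 0.49 ± 0.15, where 20.3%, 20.2% and 19% of tested genes rose. On the log2(RPKM + 0.1) and log2(RPKM + 1) scales the 1.5 h change in total introns was 0.32 and 0.064, at a 0 min level of 0.09779 RPKM. The 1.5 h calls of Tgfb1 in labelled RNA were lost without replicate 1 or 3 at 1.5 h (introns 0.124 and 0.115, exons 0.0834 and 0.112) or replicate 3 at 0 min (0.205 and 0.167). The intron call was lost as well without replicate 1 at 0 min (0.0503), the exon call without replicate 2 at 0 min (0.0752), and the 1 h intron call without replicate 3 at 1 h or at 0 min (0.0586 and 0.102).

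The ratio of introns to exons within each labelled library was tested itself, at times picked after their values were seen. For Tgfb1 its log2 was higher than at 0 min by 0.74 ± 0.22 at 30 min, 0.77 ± 0.22 at 1 h and 0.84 ± 0.22 at 1.5 h (limma adjusted p = 0.0228, 0.0243 and 0.0247). The ratio rose in 9.3%, 6.05% and 3.54% of tested genes at these times. These Tgfb1 calls were lost without replicate 3 at 0 min (0.163, 0.169 and 0.192), and, leaving out 1 later library at a time, without replicate 2 or 3 at 30 min (0.0548 and 0.104), 1 or 3 at 1 h (0.0836 and 0.0608) and 1 or 3 at 1.5 h (0.0659 and 0.118). The ratio also changed for Smad3 at 30 min (0.36 ± 0.12, adjusted p = 0.0399) and for Tgfb2 at 1 h (-0.27 ± 0.077, adjusted p = 0.0239), where 4.5% of genes fell. The Smad3 call was lost without any 1 of its 6 libraries (0.0674 to 0.125), and the Tgfb2 call without replicate 3 at 1 h (0.162) or replicate 1 or 3 at 0 min (0.101 and 0.0828).

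**Figure D3:**
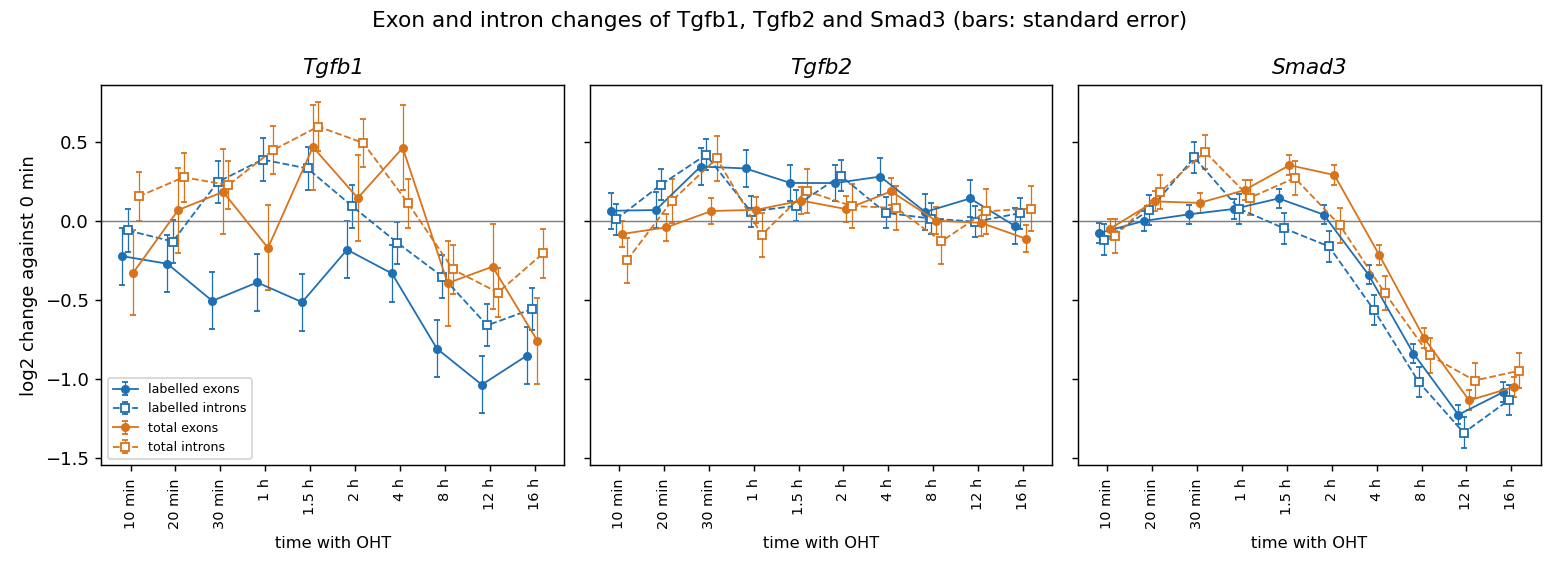
Log2 change against 0 min of Tgfb1, Tgfb2 and Smad3 at each time with OHT, in exons (filled) and introns (open) of labelled (blue) and total RNA (orange); bars are standard errors. Labelled introns of Smad3 and Tgfb2 are highest at 30 min, and labelled introns of Tgfb1 lie above its labelled exons at each time.

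In labelled RNA the 8 members whose exons fell at 16 h also fell in introns. In labelled introns 3 members fell at 4 h (Amotl2, Tgfb3 and Smad3), 7 at 8 h, 8 at 12 h and 8 at 16 h, where 24.9%, 26.1%, 26.8% and 23% of tested genes fell. The changes at 16 h ran from -1.66 ± 0.29 for Ctgf and -1.53 ± 0.18 for Cyr61 to -0.32 ± 0.086 for Skil, with Tgfb2 at 0.050 ± 0.10. Without replicate 1 at 4 h the Tgfb3 call at 4 h was lost (change -0.35 in place of -0.56, adjusted p = 0.0619). In total introns 3 fell at 4 h, 6 at 8 h, 8 at 12 h and 7 at 16 h, where 19.5%, 22.8%, 22.2% and 19.8% fell. Tgfb1 was at -0.21 ± 0.15 there (adjusted p = 0.301). No member passed the test of the intron to exon ratio at 16 h, where 0.775% of all genes were called. Tgfb3 came nearest at 0.27 ± 0.071 (adjusted p = 0.0741).

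No difference between labelled and total RNA passed the test for a member. The change at 16 h in labelled exons minus that in total exons was -0.092 ± 0.34 for Ctgf, -0.051 ± 0.31 for Cyr61, -0.033 ± 0.084 for Smad3 and 0.17 ± 0.17 for Tgfb3. None of the 9 was called by limma at 4 h or 16 h, as 0.0611% and 0.332% of all genes were. Over the 10 times the widest gap was in Tgfb1 at 1.5 h, at -0.98 ± 0.32 (adjusted p = 0.137), a time at which 0.742% of all genes were called. At 4 h the Tgfb1 gap was -0.79 ± 0.32 (adjusted p = 0.593). In bulk samples like these, fewer cells of a type and less RNA per cell cannot be told apart.

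Between later times, labelled exons of 8 members fell from 4 h to 16 h, where 12.2% of tested genes fell. The changes ran from -1.92 ± 0.23 for Ctgf and -1.40 ± 0.17 for Cyr61 to -0.31 ± 0.12 for Tgfb2 (adjusted p = 0.0485), and Skil was at -0.17 ± 0.086. From 1 h to 4 h Smad3 fell (-0.42 ± 0.061, adjusted p = 2.39e-05) and no other member was called, where 7.01% of tested genes fell. The 4 h to 16 h count was 4 without replicate 2 at 4 h, 5 without replicate 3 at 4 h and 5 without replicate 3 at 16 h. The Tgfb2 call was lost in 6 of 11 other settings of the fit.

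Other YAP and TEAD targets in the files also fell at 16 h. This list and those that follow were chosen with earlier results of these data known, so their counts are descriptions. In labelled exons 13 of 18 fell and 1 rose, where 21.7% of all tested genes fell and 22.5% rose, with a median log2 change of -0.59. Nuak2, a kinase gene, changed by -1.73 ± 0.16 and Crim1 by -0.95 ± 0.077. The gene that rose, named after its value was seen, was Wwc1 (0.48 ± 0.12). At 1 h 4 of 18 rose, Foxf2 (0.46 ± 0.12), Dock5 (0.26 ± 0.064), Nt5e and Wwc1, and 2 fell, Arhgef17 and Birc5, where 13.5% of all tested genes rose and 9.77% fell. Without replicate 2 at 0 min the Foxf2 call was lost (adjusted p = 0.0528).

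Of 22 Hippo pathway genes and TEAD factors 13 fell and 3 rose at 16 h (Yap1, Stk4 and Nf2), against 21.7% and 22.5% of all tested genes. Wwtr1, which encodes TAZ, changed by -0.75 ± 0.076, and Tead1, a DNA-binding partner, by -0.92 ± 0.090. Vgll3, another TEAD cofactor, changed by -1.14 ± 0.089, and the Hippo kinase gene Lats2 by -0.85 ± 0.086. Yap1 itself rose, from 4077 ± 306 at 0 min to 5323 ± 225 at 1 h (0.39 ± 0.058, adjusted p = 4.07e-06) and 4958 ± 107 at 16 h (0.28 ± 0.058, adjusted p = 0.000118). Sav1, a Hippo scaffold, rose at 1 h (0.34 ± 0.075). Amotl1, Ajuba, Lats2 and Ptpn14 are in both lists.

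Of 16 activin branch ligands, latency and activation proteins 13 fell and none rose at 16 h, against 21.7% and 22.5% of all tested genes, with a median of -0.71. Thbs1, a matrix protein that frees latent TGF-beta, went from 34660 ± 2290 to 10670 ± 2550 (-1.72 ± 0.12). Inhba, an activin subunit, changed by -1.24 ± 0.11, Fbn1 (fibrillin, which holds latent complexes) by -0.86 ± 0.080 and the integrin Itgb5 by -0.66 ± 0.059. At 1 h Inhba (-0.36 ± 0.11) and Itgb8 (-0.77 ± 0.25) fell. Those calls were lost without replicate 2 at 1 h or replicate 1 at 0 min for Inhba (0.151 and 0.0912), and without replicate 3 at 1 h or replicate 2 at 0 min for Itgb8 (0.0924 and 0.167). Of 11 receptors 4 fell at 16 h, where 21.7% of all tested genes fell. Tgfbr2, the ligand-binding receptor, went from 2409 ± 104 to 923 ± 70.6 (-1.38 ± 0.061, adjusted p = 6.42e-19), its partner Tgfbr1 changed by -0.51 ± 0.082 and Acvr1 by -0.37 ± 0.075. Acvr2b (-0.85 ± 0.26) lost its call without replicate 3 at 16 h or at 0 min (0.0519 and 0.0692).

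Of 13 other Smads and cofactors none fell at 16 h in labelled exons and Smad9 rose (0.46 ± 0.15), a call lost without replicate 2 at 16 h or replicate 1 at 0 min (0.0577 and 0.0588). Smad2 was at -0.14 ± 0.080 (adjusted p = 0.172) and Smad4 at -0.053 ± 0.080 (adjusted p = 0.623). In total exons 6 of these 13 rose and 1, Tgif1, fell, where 26.9% of all tested genes rose and 29% fell. At 1 h Tgif1, a SMAD corepressor, rose (0.78 ± 0.15) and the coactivator gene Ep300 fell (-0.41 ± 0.061). Of 14 inhibitors and Smad ubiquitin ligases 6 fell and 2 rose at 16 h, against 21.7% and 22.5% of all tested genes. As drawn up, this list and that of the Smads and cofactors both hold Ski, Tgif1 and Tgif2. Pmepa1 changed by -0.99 ± 0.14, the ligase genes Nedd4l and Smurf2 by -0.84 ± 0.081 and -0.64 ± 0.064, while the genes that rose were Ppm1a, for a SMAD phosphatase, and Strap (0.49 ± 0.068). The Ppm1a call at 16 h (0.22 ± 0.067) was lost without replicate 3 at 16 h (adjusted p = 0.0515). At 1 h Ppm1a was also higher (0.29 ± 0.067).

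Of 25 other TGF-beta and Smad targets 17 fell at 16 h and 1, Id2, rose (0.81 ± 0.15), against 21.7% and 22.5% of all tested genes, with a median of -0.42. The collagen gene Col1a1 went from 30720 ± 2420 to 10810 ± 366, Col5a1 and Col1a2 changed by -1.33 ± 0.073 and -1.22 ± 0.12, and Fn1, for fibronectin, went from 41950 ± 3420 to 20900 ± 1580. At 1 h Bhlhe40, for a transcriptional repressor, rose by 1.08 ± 0.14 and Id2, for a dominant negative helix-loop-helix protein, by 0.63 ± 0.15. Id2 is also in the BMP list. Of 9 genes of the BMP branch 2 rose and 2 fell at 16 h, where 22.5% and 21.7% of all tested genes did. Bmp4 changed by -0.88 ± 0.16 and Bmp1 by -0.85 ± 0.10, while Msx1, a low gene, went from 5.81 ± 1.14 to 20.9 ± 4.42 (1.67 ± 0.49). With log2(RPKM + 0.1) or log2(RPKM + 1) the Msx1 change was 0.99 or 0.20. The BMP antagonist gene Grem1 was higher at 1 h (0.36 ± 0.13, adjusted p = 0.0395), a call lost without any 1 of the 6 libraries (0.0506 to 0.148) and under either other scaling (0.0819 and 0.0627).

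Most fibroblast markers were also lower at 16 h, but not all kept to a falling course. Total exons of Col1a1 averaged 164 RPKM at 0 min and 84.8 at 16 h, with 313 in the highest library of the series. For Fn1 these were 160, 93.5 and 263 RPKM. At 16 h 8 of the 9 in the files fell in labelled exons (median -0.86) and in total exons, where 21.7% and 29% of all tested genes fell. Their summed total exon level was 4824 to 5206 RPKM in the 0 min libraries and 2910 to 3008 at 16 h. Col1a1, Col1a2, Fn1 and Fbn1 are also in the lists above. Of 4 blood markers Csf1r rose in labelled exons, and the 4 summed to 2.587 to 2.836 RPKM at 0 min and 4.305 to 4.566 at 16 h. Of 3 neural markers Tubb3 rose and Map2 and Nes fell, and the 3 summed to 91.24 to 100.2 and 88.84 to 94.73 RPKM. Pecam1, the endothelial marker in the files, rose but stayed at 0.09958 to 0.1465 RPKM at 16 h. The part of these marker changes in the members' fall was not tested.

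**Figure D4:**
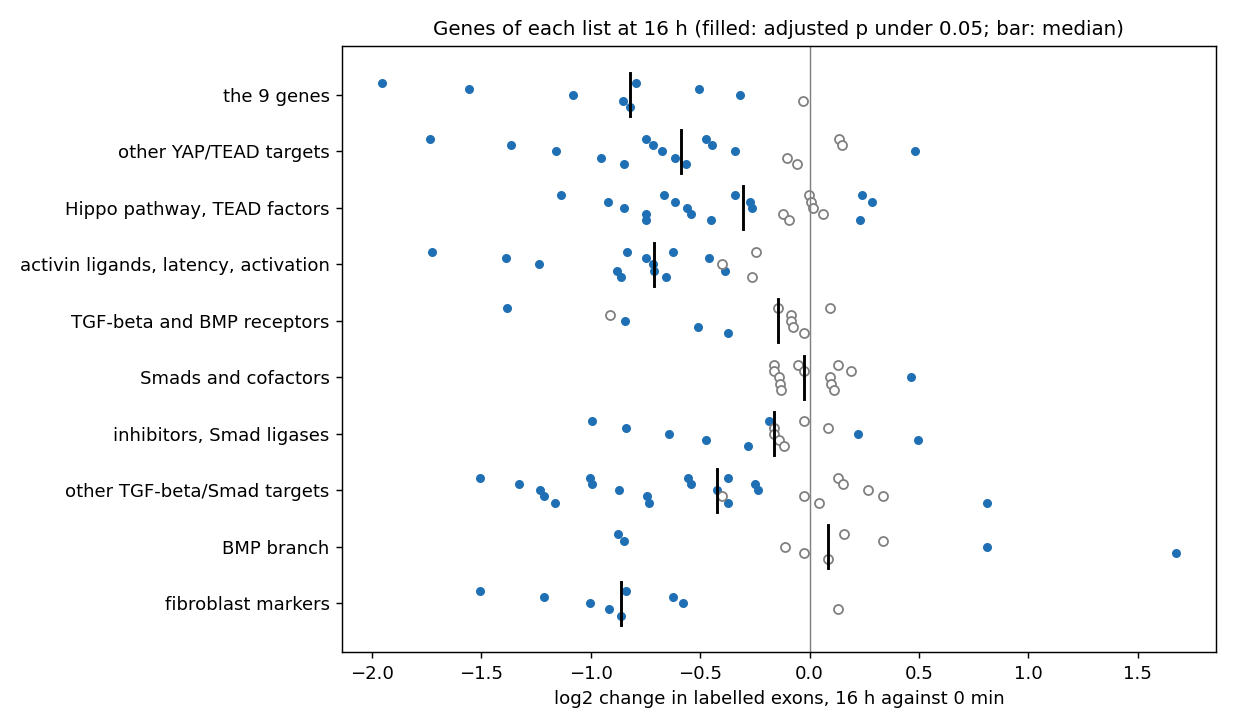
Log2 change in labelled exons at 16 h against 0 min for each gene of 10 lists; filled points had an adjusted p under 0.05, open ones did not, and bars are list medians. The median is -0.82 for the 9 genes, -0.71 for activin ligands, latency and activation, and -0.03 for Smads and cofactors.

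The genes whose labelled exon means over the 11 times followed each member most closely were found among 9679 genes, as a description over means that share libraries. They were Enc1, Tns3 and Pdgfb for Ctgf (r = 0.993, 0.992 and 0.989) and Glis2, Cgnl1 and Tnfaip3 for Cyr61 (0.996, 0.991 and 0.989). Fosl2, Pxdn and Met followed Amotl2, Gltp, P3h4 and Sema3f followed Tgfb1, and Fblim1, Dysf and Atp2b4 followed Tgfb3. For Smad7 they were Cald1, Rbpj and Zfp36l2, for Smad3 Slc1a4, Trio and Synj2, and for Skil Dtna, Ppp4r1 and Ap3m1. Tgfb2 had lower correlations (Foxn2 at r = 0.914, Nrg4 at 0.907 and Dicer1 at 0.902). Within single replicates these were lower still, at 0.556 to 0.795, 0.39 to 0.514 and 0.578 to 0.627. For Tgfb1 the values within single replicates were 0.595 to 0.83 with Gltp, 0.486 to 0.817 with P3h4 and 0.807 to 0.846 with Sema3f. The r of Tgfb2 with the other members was 0.105 to 0.501 in labelled exons and 0.18 to 0.847 in total exons. With Tgfb1 it was 0.105 in labelled and 0.847 in total exons. Among members Tgfb3 and Smad3 followed each other at r = 0.962. In total exons the r of Ap3m1 with Skil was 0.0726, against 0.974 in labelled exons. Of all the genes named here for a member, only Gltp, Dtna and Ap3m1 were also among its 3 highest by Spearman correlation.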

How the data were processed

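Exons and introns of labelled and of total RNA were each in 1 table, with 66 libraries in all. The counts deposited by the authors had been rescaled to whole numbers (13 of 66 exon libraries skip some whole numbers), so this score was given no count-based test, as the design had allowed for, and its depth is unknown. RPKM values deposited by the authors served for levels and as an alternative. Per the submitters' processing notes, which give no roles, TopHat2 2.0.8, TopHat and mm9 were used; for the counter, the annotation and strand use the sources here say nothing. Tables were rescaled by a trimmed mean of log ratios (trimming 30% of ratios and 5% of levels at each end; factors 0.9134 to 1.098). Tests were run on log2(value + 1), which understates the change of low genes, wherever 3 libraries or more reached 10 (11488 genes in labelled exons). limma 3.58.1 in R 4.3.3 fitted 1 mean per time over 33 libraries with a variance trend, two-sided tests and Benjamini-Hochberg adjustment over all genes. A call is an adjusted p under 0.05. Errors of log2 changes are standard errors, and those of levels are SDs. The intron to exon ratio used a pseudocount of 2. The fit was tested on simulated data. Positions are from GENCODE M1 (mm9). The members and lists were chosen with earlier results of these data known. List genes were named by the smallest p at 16 h (up to 4) and at 1 h (up to 2) among those called, with Yap1, Wwtr1, Tgfbr1, Tgfbr2, Smad2 and Smad4 always. Likeness genes were the 3 highest correlations per member. Alternatives covered scaling, pseudocount, RPKM, the filter, the variance model, a replicate block and each replicate left out. They were run for chosen times only. Among times with calls given above, none was run for total exons at 8 h or for labelled introns at 2 h, 8 h and 12 h. The same holds for total introns at 1 h, 2 h, 4 h, 8 h and 12 h.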

Additional observations from a re-analysis of the deposited data

How the results depend on the processing

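Of 4608 tests of a member under an alternative, 4447 stayed on the same side of the threshold, 114 lost a call and 47 gained one, and no called change turned. Among the 4447 were 134 whose sign changed with no call in either fit. Counts below are members called. Scaling by library sums left 0 in labelled exons at 30 min and at 1 h, and 0 in labelled introns at 1.5 h. No further scaling left 0 in labelled exons at 1 h and gave 2 from 1 h to 4 h. A fit on only the groups compared gave 2 in labelled exons at 1 h, 0 in labelled exons at 1.5 h, 3 in total exons at 1.5 h, 4 in total introns at 1.5 h, and 1, 0 and 0 for the intron to exon ratio at 30 min, 1 h and 1.5 h. With no variance trend, total introns had 1 at 30 min and 1 at 1.5 h, where no further scaling, log2(RPKM + 0.1) and log2(RPKM + 1) each had 1 as well. The causes were not tested.

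With each library left out in turn, labelled exons had 0 to 1 at 30 min and at 1 h, 0 to 2 at 1.5 h, 2 to 3 at 4 h, 6 to 7 at 8 h, 7 to 8 at 12 h, 8 at 16 h, 1 from 1 h to 4 h and 4 to 8 from 4 h to 16 h. Without replicate 1 at 0 min the member called at 30 min was not Tgfb2. Total exons had 1 at 1.5 h, 1 to 2 at 2 h, 1 to 3 at 4 h, 7 at 12 h and 7 to 8 at 16 h. Labelled introns had 2 to 3 at 30 min, 1 to 3 at 1 h, 0 to 1 at 1.5 h, 2 to 3 at 4 h and 8 at 16 h, and total introns 0 to 3 at 30 min, 1 at 1.5 h and 7 at 16 h. The ratio had 0 to 1 at 30 min, 0 to 3 at 1 h, 0 to 1 at 1.5 h and 0 at 16 h.

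The labels do not say what the replicate numbers share. Deviations of same-numbered libraries correlated at a mean r of 0.0396, 0.0849, 0.0371 and 0.0444 in labelled exons, total exons, labelled introns and total introns (from -0.249 to 0.454 over pairs), so not every pair was over 0.1, while 18, 27, 18 and 27 of 33 correlated best with their own number. With a replicate block some calls were added, in both directions. Amotl2 was called lower in labelled exons at 1 h (-0.24) and total exons at 4 h (-0.34). It was also called lower in labelled and total introns at 30 min (-0.26 and -0.23). Tgfb2 was called higher in labelled and total exons at 4 h (0.28 and 0.19), and Smad7 in total introns at 30 min (0.27). Tgfb3 was called lower in labelled introns at 1 h (-0.28), and Cyr61 in total introns at 1.5 h (-0.295). The test of any change in total exons called Tgfb2 as well (adjusted p = 0.002 in place of 0.0554).

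Over all genes, 1341 were called in labelled exons at 30 min against 741 and 827 without replicate 3 at 30 min or at 0 min, and 1402 from 1 h to 4 h against 650 to 918 in 4 settings. Labelled against total exons had 7 at 4 h (2 to 38) and 38 at 16 h (13 to 308). The ratio had 1688 at 30 min (603 to 993), 1212 at 1 h (169 to 726), 629 at 1.5 h (3 to 286) and 89 at 16 h (8 to 51). The share of rises among calls went, with no further scaling, from 68.9% to 36.8% (30 min), 56% to 27.4% (1.5 h), 51.2% to 39.2% (4 h) and 49.9% to 37.9% (12 h) in labelled exons, and from 54.8% to 32.8% (1.5 h) and 50.3% to 37.7% (4 h) in total exons. With library sums it went from 58.1% to 43.9% in labelled exons at 1 h, from 52.6% to 35.3% (30 min) and 52.1% to 68.3% (16 h) in labelled introns, and from 53.8% to 43.4% in total introns at 1.5 h. For both scalings (sums first) it went from 42.6% to 59.3% and 27.2% from 1 h to 4 h, from 44.2% to 55.1% and 54.5% from 4 h to 16 h, and from 56% to 35.2% and 67.2% in total introns at 30 min. The median of all genes moved by 0.109 and -0.101 (labelled introns, 16 h and 30 min, sums) and -0.115 (labelled exons, 1.5 h, no further scaling). Read depth is unknown, so low members such as Tgfb1 are limited by an error that cannot be set here.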
